A study of Mus musculus with 4 samples.

Results

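Mitosis and G2/M genes were followed in transformed mouse haematopoietic stem and progenitor cells (HSPCs). The set holds 40 genes for mitotic kinases, cyclins, kinetochore proteins, spindle motors and cytokinesis proteins, chosen as a fixed list of gene symbols out of 55426 genes in the deposited tables. All 40 symbols matched a gene, and all 40 genes passed the filter on low counts. Poly(A)-selected RNA was sequenced from 4 libraries, 2 of MLL-ENL ∆YEATS cells and 2 of MLL-ENL cells. In both, lineage-negative bone marrow cells carried a fusion of the N-terminal part of the chromatin regulator MLL (Kmt2a) with sequence of ENL (Mllt1), a reader of acylated histones, and both were grown in the same medium with 15% serum. The MLL-ENL ∆YEATS fusion holds ENL residues 372 to 559 and so lacks the YEATS domain, the histone-binding part of ENL. The labels do not state which ENL residues are in the MLL-ENL fusion. The labels name a single cell line per fusion, and the design text calls the libraries technical replicates. The p-values thus reflect how far libraries of the same cells differ, and an effect of the fusion and one of the line cannot be told apart.

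Entry into mitosis is driven by CDK1 bound to cyclins A and B, and exit follows when the anaphase-promoting complex (APC/C) marks cyclin B and securin for destruction. Between these steps kinetochores attach chromosomes to spindle microtubules, and the spindle checkpoint restrains the APC/C until every chromosome is attached. Most of these transcripts accumulate late in the cell cycle under FOXM1, B-MYB and the MuvB complex, and in blood progenitors they are a common readout of proliferation. In bulk RNA, fewer cells in G2 and M and less of these transcripts per cell cannot be told apart.

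Promoters of such genes are known for the CCAAT box, bound by NF-Y, and for the cell cycle genes homology region (CHR), bound by MuvB complexes. Sequences are shown for 4 members that stand for different values reported below. Bub1 passed the test, Plk1 differed moderately and did not pass, and Top2a and Cdc20 had log2 fold changes of 0.00 and -0.01. Each is a window of 180 bases from RefSeq on GRCm38.p6, written 5′ to 3′ and ending upstream of the RefSeq and GENCODE starts of transcription. Capitals mark the CCAAT box (CCAAT on either strand) and the CHR, whose letters are TTTGAA on either strand or else TTTAAA.
Bub1, chr2:127831866-127832045, minus strand: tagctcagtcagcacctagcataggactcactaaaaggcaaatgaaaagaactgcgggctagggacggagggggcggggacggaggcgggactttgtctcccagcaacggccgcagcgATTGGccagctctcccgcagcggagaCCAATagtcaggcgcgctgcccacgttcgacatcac
Plk1, chr7:122159255-122159434, plus strand: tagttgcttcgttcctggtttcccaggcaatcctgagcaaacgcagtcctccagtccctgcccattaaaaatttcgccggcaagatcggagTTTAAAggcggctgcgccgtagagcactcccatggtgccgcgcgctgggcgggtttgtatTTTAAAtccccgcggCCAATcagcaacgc
Top2a, chr11:99024190-99024369, minus strand: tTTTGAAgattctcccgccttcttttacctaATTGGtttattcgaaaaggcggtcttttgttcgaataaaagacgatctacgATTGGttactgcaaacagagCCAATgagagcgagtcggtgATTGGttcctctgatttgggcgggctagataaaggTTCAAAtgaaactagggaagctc
Cdc20, chr4:118437353-118437532, minus strand: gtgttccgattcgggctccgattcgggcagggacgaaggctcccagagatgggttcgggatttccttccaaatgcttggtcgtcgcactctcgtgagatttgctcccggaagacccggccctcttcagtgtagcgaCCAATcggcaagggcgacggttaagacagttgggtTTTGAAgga

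In these windows Top2a held 4 CCAAT boxes and 2 CHR matches. Plk1 held 1 CCAAT box and 2 CHR matches, Cdc20 held 1 of each, and Bub1 held 2 CCAAT boxes and 0 CHR matches. RefSeq promoters were matched for 33 of the 40 members, with 35 starts. Over the 250 bases before the start, on both strands, 77.1% of the members' promoters held a CCAAT box, against 55.8% of 43 promoters of G1/S and replication genes and 33.8% of all 32851 promoters. A CHR was matched in 54.3% of the members' promoters, against 20.9% of the G1/S promoters and 25.2% of all. Both motifs stood in 48.6% of the members' promoters, against 11.6% of the G1/S promoters and 8.78% of all. These shares describe letters and were not tested, and a match is not a bound site.

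Library totals were between 27812855 and 28814798 expected counts, which are estimated reads per gene. Values are given as CPM, counts scaled to a common library size, unless FPKM is named. The MLL-ENL libraries stood further apart from each other than the MLL-ENL ∆YEATS libraries did, with a chi-square per degree of freedom of 2.06 within MLL-ENL ∆YEATS and 96.8 within MLL-ENL. A ribosomal RNA gene took 5.46% and 5.42% of the counts in the MLL-ENL ∆YEATS libraries, against 9.25% and 4.94% in MLL-ENL replicates 1 and 2. Of 8 progenitor markers, 5 reached 1 CPM in a library. Cd34, Flt3 and Ly6a stayed at or below 0.213 CPM, and the receptor gene Kit had 2.62 and 3.91 CPM in the MLL-ENL ∆YEATS libraries, against 50.4 and 66.9 CPM in the MLL-ENL libraries. Meis1 was called lower (log2 fold change -0.76 ± 0.11 SE, edgeR adjusted p = 0.00997). Myb, Hoxa9 and Ptprc, with log2 fold changes of -0.20, -0.05 and 0.26, were not called. All 6 granulocyte and monocyte markers reached 1 CPM in a library, and they differed in direction. Elane, Mpo and Ly6c2 fell, Csf1r rose (log2 fold change 0.96 ± 0.21 SE, edgeR adjusted p = 0.0346), and Itgam and Ly6g were not called. Their sum, to which Elane gave most, was 2890 and 2960 CPM in the MLL-ENL ∆YEATS libraries, against 5630 and 4960 CPM in the MLL-ENL libraries. None of 14 B-cell, T-cell, stromal and endothelial markers reached 1 CPM, and 4 of 6 erythroid markers were at 0 in all libraries. The part of these differences in the results below was not tested.

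The mitosis and G2/M genes were well expressed in every library, with 405 to 25674 expected counts per gene and library. Ranked by mean FPKM, which accounts for gene length, the members lay between the 50.1 and the 95.8 percentile of the 13245 tested genes, with a median at 82.7. The highest member on this scale was Cdk1, with 216 and 206 FPKM in the MLL-ENL ∆YEATS libraries, against 123 and 168 FPKM in the MLL-ENL libraries. Next came Smc4, an ATPase subunit of condensin, with 188 and 186 FPKM in the MLL-ENL ∆YEATS libraries, against 126 and 146 FPKM in the MLL-ENL libraries. Ube2c, the E2 enzyme of the APC/C, had 172 and 177 FPKM in the MLL-ENL ∆YEATS libraries, against 134 and 160.2 FPKM in the MLL-ENL libraries. For all 3 of these genes both MLL-ENL ∆YEATS libraries lay above both MLL-ENL libraries, and MLL-ENL replicate 1 was lowest. By CPM, 32.1% of all tested genes lay higher in this way. Top2a, next on the FPKM scale, had overlapping groups. The 40 genes summed to 6216 and 6231 CPM in the MLL-ENL ∆YEATS libraries, against 5197 and 5894 CPM in the MLL-ENL libraries. The sums of the MLL-ENL ∆YEATS libraries were nearly the same, and MLL-ENL replicate 1 again stood lowest.

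**Figure D1:**
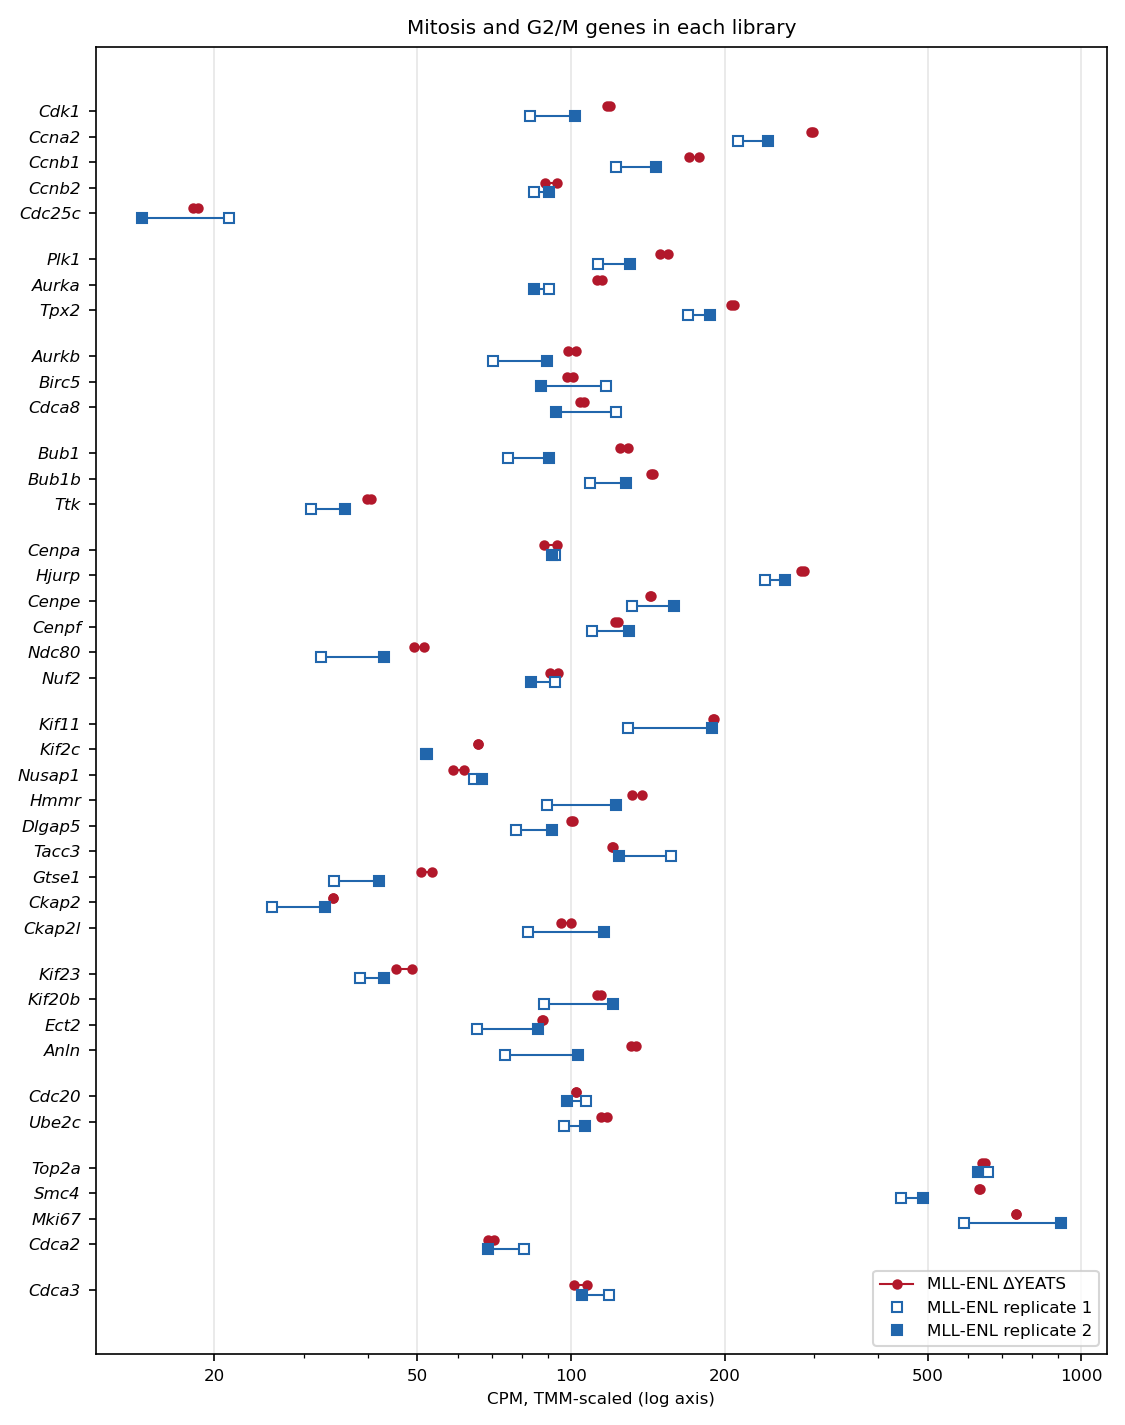
CPM of each of the 40 members on a log axis, grouped by role, with MLL-ENL ∆YEATS libraries as circles and MLL-ENL libraries as squares (open for replicate 1, filled for replicate 2). Lines join libraries of a group. The circles of a gene nearly coincide, and the squares lie further apart for 38 of the 40 genes.

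The comparison asked whether mitotic transcripts differed between cells with the MLL-ENL ∆YEATS fusion and cells with the MLL-ENL fusion. Of the 40 members, 1 rose and 0 fell at an adjusted p under 0.05 by edgeR's quasi-likelihood test, adjusted over all 13245 tested genes, where 16.9% of all tested genes were called, 7.04% as higher and 9.84% as lower. At an unadjusted p under 0.05, 11 members were higher and 0 lower, where 33.3% of all tested genes passed in either direction. DESeq2 called 3 members higher and 0 lower, where it called 18.2% of all tested genes, 7.74% as higher and 10.5% as lower. The log2 fold changes of the members, MLL-ENL ∆YEATS minus MLL-ENL, ran from -0.22 to 0.62 with a median of 0.21, and 29 of 40 were above 0. The median over all tested genes was -0.01. Leaving out MLL-ENL replicate 1 gave a members' median of 0.13, and leaving out MLL-ENL replicate 2 gave 0.33.

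The intervals give the size of difference that these libraries leave room for. The 95% interval of the log2 fold change, not adjusted for the number of genes, stayed within a 2-fold change either way for 39 of 40 members, and for 66.3% of all tested genes. The exception was Anln, with an interval from 0.13 to 1.03. For 23 members the interval stayed within a 1.5-fold change, a limit for which the share of all tested genes was not taken. The interval lay above 0 for 11 members and spanned 0 for the other 29. These 11 are the members with an unadjusted p under 0.05, counted above. That threshold was passed by 33.3% of all tested genes in either direction.

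**Figure D2:**
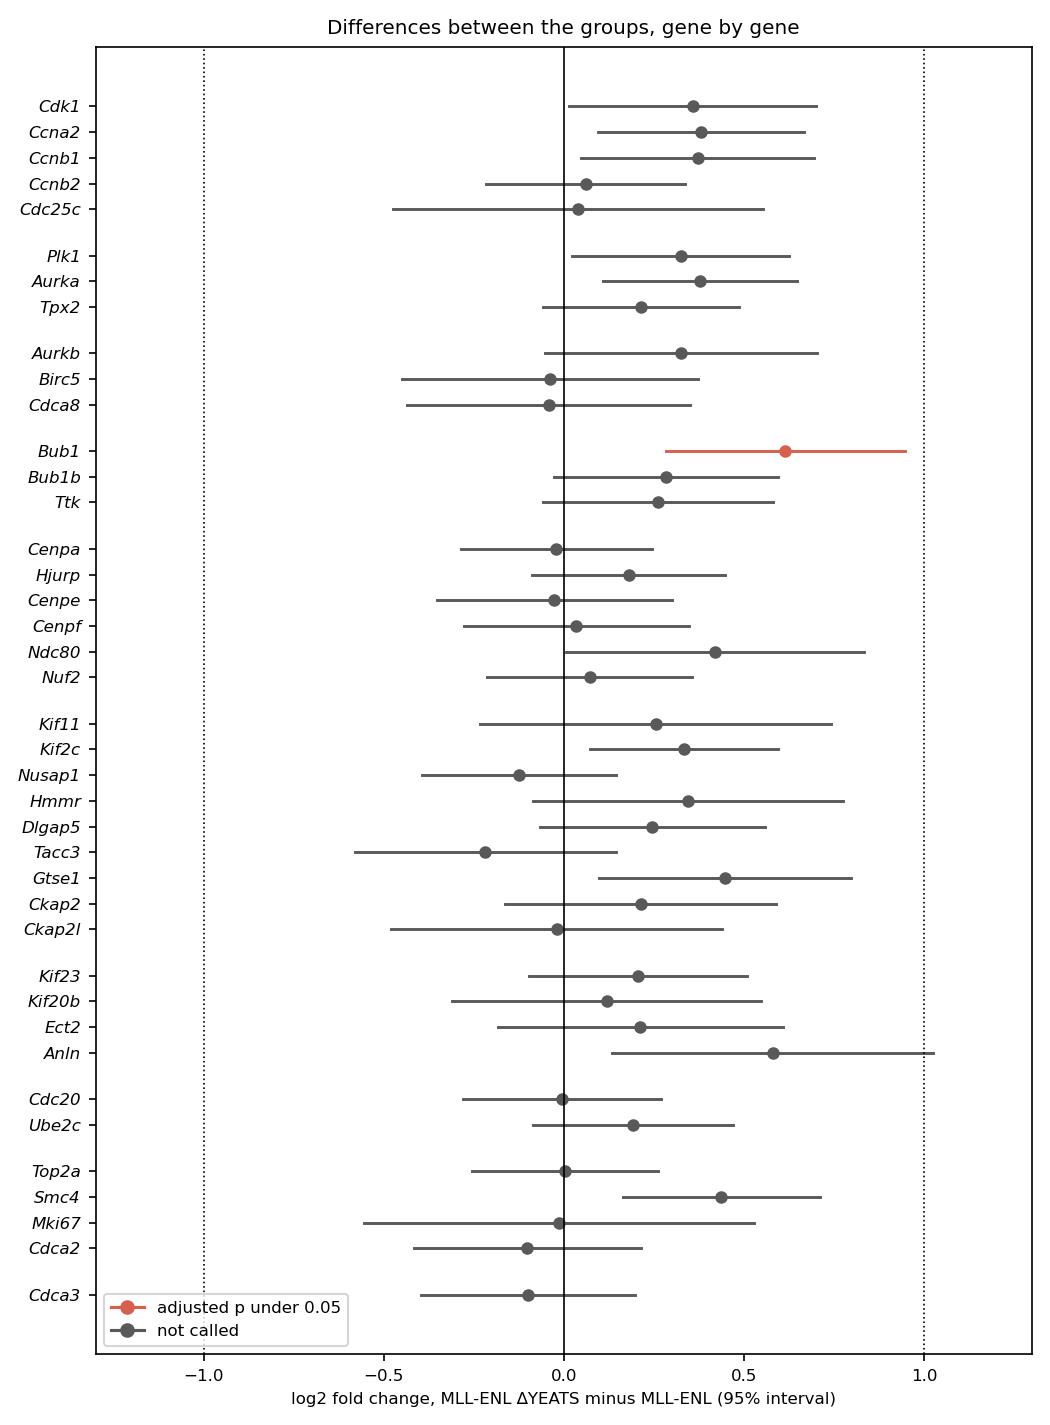
Log2 fold change of each member, MLL-ENL ∆YEATS minus MLL-ENL (points), with its 95% interval (lines), in the same order of roles. Dotted lines mark 2-fold changes, and the coloured point is Bub1, the member with an adjusted p under 0.05. The interval of Anln is the one that crosses a dotted line.

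CDK1 and its cyclins did not pass the test. Cdk1 had 117 and 119.5 CPM in the MLL-ENL ∆YEATS libraries, against 82.9 and 102 CPM in the MLL-ENL libraries (log2 fold change 0.36 ± 0.14 SE, edgeR adjusted p = 0.138). Cyclin A2 (Ccna2), which acts in S phase and G2, had 298 and 295 CPM in the MLL-ENL ∆YEATS libraries, against 213 and 243 CPM in the MLL-ENL libraries (log2 fold change 0.38 ± 0.11 SE, edgeR adjusted p = 0.0809). Cyclin B1 (Ccnb1), the main mitotic partner of CDK1, had 171 and 178 CPM in the MLL-ENL ∆YEATS libraries, against 123 and 147 CPM in the MLL-ENL libraries (log2 fold change 0.37 ± 0.13 SE, edgeR adjusted p = 0.113). For these 3 genes both MLL-ENL ∆YEATS libraries lay above both MLL-ENL libraries, where 32.1% of all tested genes did so. Cyclin B2 (Ccnb2) had 93.9 and 89 CPM in the MLL-ENL ∆YEATS libraries, against 84.5 and 90.7 CPM in the MLL-ENL libraries. Cdc25c, the phosphatase that activates CDK1, had 18.2 and 18.6 CPM in the MLL-ENL ∆YEATS libraries, against 21.4 and 14.4 CPM in the MLL-ENL libraries. For Ccnb2 and Cdc25c the groups overlapped. Exons of Ccna2 overlap those of Exosc9 on the opposite strand over 12.5% of their length, and since no source used here gives the strand setting of the counting, part of the Ccna2 counts is uncertain.

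The polo and aurora kinases lay higher in both MLL-ENL ∆YEATS libraries without passing the test. Polo-like kinase 1 (Plk1), which acts from mitotic entry to cytokinesis, had 149.7 and 155 CPM in the MLL-ENL ∆YEATS libraries, against 113 and 130.3 CPM in the MLL-ENL libraries (log2 fold change 0.32 ± 0.12 SE, edgeR adjusted p = 0.128). Aurora A (Aurka), which matures centrosomes, had 112 and 115 CPM in the MLL-ENL ∆YEATS libraries, against 90.5 and 84.6 CPM in the MLL-ENL libraries (log2 fold change 0.38 ± 0.11 SE, edgeR adjusted p = 0.0705). Tpx2, the spindle protein that activates aurora A, had 208 and 206 CPM in the MLL-ENL ∆YEATS libraries, against 169.6 and 187 CPM in the MLL-ENL libraries. In each of the 3 genes the groups did not overlap, where 32.1% of all tested genes lay higher in this way. The gap within the MLL-ENL ∆YEATS pair was smaller than the gap within the MLL-ENL pair.

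The chromosomal passenger complex corrects faulty attachments, and its subunits gave differing values. The kinase subunit aurora B (Aurkb) had 98.5 and 102 CPM in the MLL-ENL ∆YEATS libraries, against 70.2 and 89.9 CPM in the MLL-ENL libraries (log2 fold change 0.33 ± 0.15 SE, edgeR adjusted p = 0.2). Survivin (Birc5) had 101 and 98.1 CPM in the MLL-ENL ∆YEATS libraries, against 117 and 87.5 CPM in the MLL-ENL libraries. Borealin (Cdca8) had 106 and 104 CPM in the MLL-ENL ∆YEATS libraries, against 123 and 93.7 CPM in the MLL-ENL libraries. For Aurkb the groups did not overlap, whereas for Birc5 and Cdca8 both MLL-ENL ∆YEATS libraries lay between the MLL-ENL libraries. Without MLL-ENL replicate 1, Birc5 and Cdca8 had log2 fold changes of 0.19 and 0.17. Without MLL-ENL replicate 2 these were -0.23 and -0.22.

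Bub1 was the member that rose. This checkpoint kinase (chromosome 2, 127801122 to 127831865, minus strand, GRCm38) phosphorylates histone H2A at centromeres and brings other checkpoint proteins to kinetochores. It had 125 and 129 CPM in the MLL-ENL ∆YEATS libraries, against 75.3 and 90.6 CPM in the MLL-ENL libraries (log2 fold change 0.62 ± 0.13 SE, edgeR adjusted p = 0.0328), a 1.53-fold difference. The groups did not overlap, and the distance between them exceeded the gap within either pair. The call held in 13 of 18 alternatives. These include the fits without MLL-ENL replicate 1 or 2, where the spread came from the close MLL-ENL ∆YEATS pair alone. Bub1 had log2 fold changes of 0.49 and 0.76 there. The call ended in 3 limma fits on log2 FPKM (adjusted p = 0.0631 at a pseudocount of 1). It also ended without MLL-ENL ∆YEATS replicate 1 or replicate 2, where the spread came from the wider MLL-ENL pair alone. The log2 fold changes were then 0.63 and 0.59. The other checkpoint kinases were not called. BubR1 (Bub1b), part of the APC/C inhibitor, had 145 and 144 CPM in the MLL-ENL ∆YEATS libraries, against 109 and 128 CPM in the MLL-ENL libraries. Ttk, which starts checkpoint signalling, had 40.6 and 39.8 CPM in the MLL-ENL ∆YEATS libraries, against 30.9 and 36.1 CPM in the MLL-ENL libraries. Both genes were lowest in MLL-ENL replicate 1.

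Of the 6 centromere and kinetochore genes, edgeR and DESeq2 called 0, where they called 16.9% and 18.2% of all tested genes. With either tool 1 of the 6 had an unadjusted p under 0.05, where 33.3% of all tested genes passed with edgeR. The median log2 fold change of the 6 was 0.05. The centromeric histone gene Cenpa had 88.5 and 93.7 CPM in the MLL-ENL ∆YEATS libraries, against 93 and 91.9 CPM in the MLL-ENL libraries. Its chaperone Hjurp had 287 and 283 CPM in the MLL-ENL ∆YEATS libraries, against 239.6 and 263 CPM in the MLL-ENL libraries. Ndc80 and Nuf2 form the microtubule-binding dimer of the kinetochore, and their values differed in pattern. Ndc80 had 49.3 and 51.6 CPM in the MLL-ENL ∆YEATS libraries, against 32.3 and 43 CPM in the MLL-ENL libraries (log2 fold change 0.42 ± 0.16 SE, edgeR adjusted p = 0.145). Nuf2 had 91 and 94.4 CPM in the MLL-ENL ∆YEATS libraries, against 92.9 and 83.6 CPM in the MLL-ENL libraries (log2 fold change 0.07 ± 0.11 SE, edgeR adjusted p = 0.701). The groups did not overlap for Ndc80 and overlapped for Nuf2. The kinetochore kinesin Cenpe and the large kinetochore protein Cenpf had overlapping groups, with log2 fold changes of -0.03 and 0.03. Cenpe was called lower without MLL-ENL replicate 1 (-0.16) and higher without MLL-ENL replicate 2 (0.12).

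The 9 genes for spindle motors and microtubule proteins included the lowest log2 fold change of the members. Tacc3, which strengthens kinetochore fibres, had 121 and 120.5 CPM in the MLL-ENL ∆YEATS libraries, against 157 and 124 CPM in the MLL-ENL libraries (log2 fold change -0.22 ± 0.14 SE, edgeR adjusted p = 0.352). The spindle protein gene Nusap1 had 58.8 and 61.7 CPM in the MLL-ENL ∆YEATS libraries, against 64.4 and 67 CPM in the MLL-ENL libraries (log2 fold change -0.13 ± 0.11 SE, edgeR adjusted p = 0.466). These were the 2 members with both MLL-ENL ∆YEATS libraries below both MLL-ENL libraries. Gtse1, a microtubule-bound regulator of G2 and mitosis, had 53.3 and 50.8 CPM in the MLL-ENL ∆YEATS libraries, against 34.4 and 42 CPM in the MLL-ENL libraries (log2 fold change 0.45 ± 0.14 SE, edgeR adjusted p = 0.0886). Kif2c, a kinesin that shortens microtubules, had 65.6 and 65.7 CPM in the MLL-ENL ∆YEATS libraries, against 52.1 and 52.2 CPM in the MLL-ENL libraries (log2 fold change 0.33 ± 0.10 SE, edgeR adjusted p = 0.0894). For Gtse1 and Kif2c the groups did not overlap, and for Kif2c the libraries of each group nearly coincided. Kif11, the motor that separates spindle poles, had 189.6 and 191 CPM in the MLL-ENL ∆YEATS libraries, against 129 and 189 CPM in the MLL-ENL libraries. MLL-ENL replicate 2 was close to both MLL-ENL ∆YEATS libraries, and leaving out MLL-ENL replicate 1 gave a log2 fold change of 0.01 for Kif11, while leaving out MLL-ENL replicate 2 gave 0.56. The spindle genes Hmmr, Dlgap5, Ckap2 and Ckap2l were not called, with log2 fold changes of 0.34, 0.25, 0.21 and -0.02.

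Among the cytokinesis genes anillin (Anln), the scaffold of the contractile ring, had the next largest difference after Bub1. It had 131 and 134 CPM in the MLL-ENL ∆YEATS libraries, against 74.2 and 103 CPM in the MLL-ENL libraries (log2 fold change 0.58 ± 0.18 SE, edgeR adjusted p = 0.0857). The groups did not overlap, and MLL-ENL replicate 1 was lowest. Anln was called with DESeq2 (adjusted p = 0.0234). Ect2, which activates RhoA at the cell equator, had 88 and 87.5 CPM in the MLL-ENL ∆YEATS libraries, against 65.5 and 86 CPM in the MLL-ENL libraries. The central spindle motor Kif23 had 48.7 and 45.4 CPM in the MLL-ENL ∆YEATS libraries, against 38.5 and 43 CPM in the MLL-ENL libraries. The midzone kinesin Kif20b had 114 and 113 CPM in the MLL-ENL ∆YEATS libraries, against 88.3 and 121 CPM in the MLL-ENL libraries. Ect2 in MLL-ENL replicate 2 was close to the MLL-ENL ∆YEATS libraries, and for Kif20b the groups overlapped.

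Genes of mitotic exit and of mitotic chromosomes ranged from close values to a difference just short of the threshold. Cdc20, the mitotic activator of the APC/C, had 102 and 102 CPM in the MLL-ENL ∆YEATS libraries, against 107 and 98.1 CPM in the MLL-ENL libraries. Ube2c had 114 and 118 CPM in the MLL-ENL ∆YEATS libraries, against 96.9 and 106 CPM in the MLL-ENL libraries (log2 fold change 0.19 ± 0.11 SE, edgeR adjusted p = 0.29). Topoisomerase II alpha (Top2a), which untangles sister chromatids, had 640.4 and 647 CPM in the MLL-ENL ∆YEATS libraries, against 658 and 627 CPM in the MLL-ENL libraries (log2 fold change 0.00 ± 0.10 SE, edgeR adjusted p = 0.989). The groups overlapped for Cdc20 and Top2a, and the interval of Top2a ran from -0.25 to 0.26. Smc4 had 630.4 and 632 CPM in the MLL-ENL ∆YEATS libraries, against 443 and 489.7 CPM in the MLL-ENL libraries (log2 fold change 0.44 ± 0.11 SE, edgeR adjusted p = 0.0511). Both MLL-ENL ∆YEATS libraries lay above both MLL-ENL libraries, and DESeq2 called Smc4 (adjusted p = 0.0444). Ki-67 (Mki67), which coats mitotic chromosomes and is used as a proliferation marker, had 746 and 744 CPM in the MLL-ENL ∆YEATS libraries, against 590.3 and 913 CPM in the MLL-ENL libraries (log2 fold change -0.01 ± 0.22 SE, edgeR adjusted p = 0.975). Both MLL-ENL ∆YEATS libraries lay between the MLL-ENL libraries. Mki67 was called lower without MLL-ENL replicate 1 (-0.29) and higher without MLL-ENL replicate 2 (0.34). Cdca2, which brings phosphatase PP1 to anaphase chromatin, had 70.7 and 68.7 CPM in the MLL-ENL ∆YEATS libraries, against 80.8 and 68.7 CPM in the MLL-ENL libraries (log2 fold change -0.10 ± 0.13 SE, edgeR adjusted p = 0.621). Cdca3, which serves mitotic entry, had 107 and 102 CPM in the MLL-ENL ∆YEATS libraries, against 119 and 105 CPM in the MLL-ENL libraries. For Cdca2 and Cdca3 the groups overlapped.

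Over all roles, both MLL-ENL ∆YEATS libraries lay above both MLL-ENL libraries for 23 of 40 members, where 32.1% of all tested genes did so, and below them for 2 members, where 32.2% did so. The groups overlapped for the other 15. The gap within the MLL-ENL pair touched most of these genes. MLL-ENL replicate 1 was below MLL-ENL replicate 2 in 29 of 40 members, with a median log2 ratio of -0.20, where 51.9% of all tested genes were below and their median was -0.02. This ratio ran from -0.63 for Mki67 to 0.57 for Cdc25c. The same ratio within the MLL-ENL ∆YEATS pair ran from -0.08 to 0.10. Across 13165 genes the MLL-ENL ratio was lower for genes of greater exonic length (Spearman's rho = -0.389, a description, since all genes share the same libraries). Among the members alone Spearman's rho was -0.29. The members' median exonic length was 4919 bases, against 4059 bases for tested genes. With a length trend removed, the members' median log2 fold change was 0.18. The part of gene length in the members' differences was not tested.

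**Figure D3:**
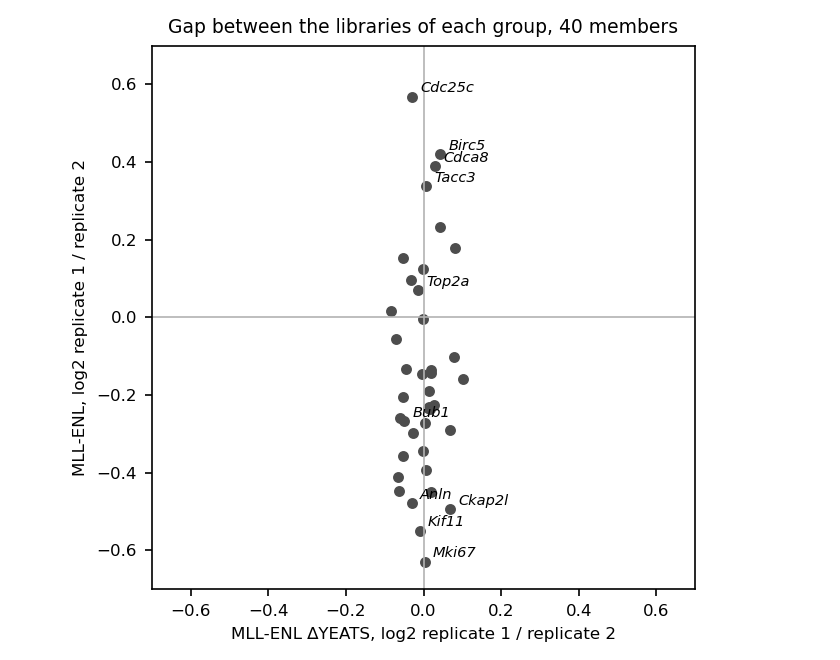
Log2 ratio of replicate 1 to replicate 2 for each of the 40 members, within MLL-ENL ∆YEATS on the horizontal axis and within MLL-ENL on the vertical axis, on equal scales. The points stay between -0.08 and 0.10 horizontally and run from -0.63 (Mki67) to 0.57 (Cdc25c) vertically.

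The number of members called depended on which libraries were kept. Without MLL-ENL replicate 1, 22 members were called higher and 4 lower, where 54.7% of all tested genes were called. Without MLL-ENL replicate 2, 29 were called higher and 6 lower, where 66.5% of all tested genes were called. In these fits the spread came from the close MLL-ENL ∆YEATS pair, and the lone MLL-ENL library was assumed to vary like it. In fits without an MLL-ENL ∆YEATS library the spread came from the wider MLL-ENL pair. Whether a call held in any of these fits depends in part on the pair kept. Without MLL-ENL ∆YEATS replicate 1 or 2, edgeR called 0 members and 0 had an unadjusted p under 0.05, where 10.3% and 10.2% of all tested genes were called.

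FPKM were used as deposited, without TMM scaling. They gave higher log2 ratios of MLL-ENL ∆YEATS to MLL-ENL than CPM for most members, as for Mki67 (0.03 against -0.01). The ratios were lower than with CPM for Plk1, Cenpa and Kif23. For Cdk1 the log2 ratio of mean FPKM was 0.54, and that of mean CPM was 0.36. For Kif23 the log2 ratio of mean FPKM was 0.03, and that of mean CPM was 0.21. The gene length implied by counts and FPKM varied between libraries by 1.16 times for Cdk1, 1.25 times for Kif23 and at most 1.37 times, for Cdc25c. Overlap with a gene on the opposite strand also makes part of the counts of Cdc20 (Elovl1), Cdca8 (9930104L06Rik), Nusap1 (Oip5) and Tacc3 (Tmem129) uncertain.

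Other mitotic genes, with CDK inhibitors counted among them, were taken from 7 lists with 121 genes, of which 120 were tested. Of these 8 rose and 1 fell, which is 7.5%, where 16.9% of all tested genes were called, and 5 of the 8 were CDK inhibitors. Without the CDK inhibitors, 3 of 112 rose and 1 fell, and their median log2 fold change was 0.14. Among 13 regulators of G2/M transcription, edgeR and DESeq2 called 0, where they called 16.9% and 18.2% of all tested genes. By either tool 1 of the 13 had an unadjusted p under 0.05, where 33.3% of all tested genes passed with edgeR. Foxm1, the activator of late cell-cycle genes, had 68.2 and 67.6 CPM in the MLL-ENL ∆YEATS libraries, against 46.3 and 59.5 CPM in the MLL-ENL libraries (log2 fold change 0.36 ± 0.15 SE, edgeR adjusted p = 0.168). E2f4, a repressor subunit of the DREAM complex, had 66.9 and 64.1 CPM in the MLL-ENL ∆YEATS libraries, against 79.1 and 91 CPM in the MLL-ENL libraries (log2 fold change -0.38 ± 0.12 SE, edgeR adjusted p = 0.0956). The groups did not overlap for either gene, with Foxm1 higher and E2f4 lower in both MLL-ENL ∆YEATS libraries. Both were named for the smallest p of the 13. Of all tested genes, 32.1% lay higher and 32.2% lower without overlap.

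Of 17 APC/C genes 1 rose and 1 fell, which is 11.8%, where 16.9% of all tested genes were called. The APC/C inhibitor gene Fbxo5 had 43.8 and 44.2 CPM in the MLL-ENL ∆YEATS libraries, against 30.5 and 32.5 CPM in the MLL-ENL libraries (log2 fold change 0.48 ± 0.11 SE, edgeR adjusted p = 0.0403). The RING subunit gene Anapc11 had 32.8 and 33.4 CPM in the MLL-ENL ∆YEATS libraries, against 73.4 and 51.4 CPM in the MLL-ENL libraries (log2 fold change -0.91 ± 0.19 SE, edgeR adjusted p = 0.0303). Neither gene's groups overlapped. The calls held in 9 of 18 alternatives for Fbxo5 and in 15 of 18 for Anapc11, counting the fits without an MLL-ENL library. Both calls ended when either MLL-ENL ∆YEATS library was left out and the spread came from the wider MLL-ENL pair. Log2 fold changes there were 0.48 and 0.47 for Fbxo5 and -0.91 and -0.93 for Anapc11. Of 27 other spindle and cytokinesis genes 2 rose, which is 7.41%, where 7.04% of all tested genes rose. The centrosomal kinase gene Nek2 had 108 and 106 CPM in the MLL-ENL ∆YEATS libraries, against 56.1 and 75.5 CPM in the MLL-ENL libraries (log2 fold change 0.69 ± 0.17 SE, edgeR adjusted p = 0.0456). The mitotic kinase gene Pbk had 56.2 and 61 CPM in the MLL-ENL ∆YEATS libraries, against 42.5 and 40.6 CPM in the MLL-ENL libraries (log2 fold change 0.49 ± 0.11 SE, edgeR adjusted p = 0.0394). The groups did not overlap for either gene. The calls held in 11 of 18 alternatives for Nek2 and 10 of 18 for Pbk, again counting the fits without an MLL-ENL library. Both ended when either MLL-ENL ∆YEATS library was left out. Log2 fold changes were then 0.68 and 0.70 for Nek2 and 0.55 and 0.43 for Pbk.

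In the remaining mitotic lists edgeR and DESeq2 called 0 genes, where they called 16.9% and 18.2% of all tested genes. These were 24 checkpoint and kinetochore partners (3 at an unadjusted p under 0.05 with edgeR), 18 condensin, cohesin and separase genes (4) and 13 kinases and phosphatases of mitotic entry (2). At that unadjusted threshold 33.3% of all tested genes passed. The checkpoint gene Mad2l1 had 98 and 100.2 CPM in the MLL-ENL ∆YEATS libraries, against 67.2 and 83.2 CPM in the MLL-ENL libraries (log2 fold change 0.40 ± 0.14 SE, edgeR adjusted p = 0.116). Zwilch, which helps to bring checkpoint proteins to kinetochores, had 70.3 and 69.9 CPM in the MLL-ENL ∆YEATS libraries, against 45.5 and 57.6 CPM in the MLL-ENL libraries (log2 fold change 0.44 ± 0.15 SE, edgeR adjusted p = 0.101). The condensin subunit gene Ncaph had 67.4 and 66.8 CPM in the MLL-ENL ∆YEATS libraries, against 48.1 and 54.9 CPM in the MLL-ENL libraries (log2 fold change 0.38 ± 0.12 SE, edgeR adjusted p = 0.0889). All 3 were named for small p, and were higher in both MLL-ENL ∆YEATS libraries than in both MLL-ENL libraries. Of all tested genes 32.1% were higher in this way. Of the 24 checkpoint and kinetochore partners, 11 lay higher without overlap, 1 lay lower and 12 overlapped. For the 18 condensin, cohesin and separase genes these counts were 11, 3 and 4. The cohesin subunit gene Stag1, the cyclin F gene Ccnf and the phosphatase subunit gene Ppp2r2a were not called, with log2 fold changes of 0.36, 0.38 and 0.32.

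Of 8 CDK inhibitor genes 5 rose and 0 fell, where 7.04% of all tested genes rose and 9.84% fell. The median log2 fold change of the 8 was 0.76. Cdkn1c, whose product restrains several cyclin-CDK complexes, had 10.5 and 12 CPM in the MLL-ENL ∆YEATS libraries, against 1.79 and 1.07 CPM in the MLL-ENL libraries (log2 fold change 2.98 ± 0.27 SE, edgeR adjusted p = 0.00209). Cdkn2b, an inhibitor of CDK4 and CDK6, had 1.23 and 0.977 CPM in the MLL-ENL ∆YEATS libraries, against 0.336 and 0.178 CPM in the MLL-ENL libraries (log2 fold change 2.09 ± 0.40 SE, edgeR adjusted p = 0.0231). The Cdkn2b values rest on 9 and 5 expected counts in the MLL-ENL libraries. Its call ended without MLL-ENL ∆YEATS replicate 1, with a log2 fold change of 1.91. The other 3 called inhibitors fall outside the rule for named genes and were chosen after their values were seen. Cdkn2c, which also inhibits CDK4 and CDK6, had 116 and 117 CPM in the MLL-ENL ∆YEATS libraries, against 40.2 and 41.1 CPM in the MLL-ENL libraries (log2 fold change 1.52 ± 0.11 SE, edgeR adjusted p = 0.00105). Cdkn1a, a target of p53, had 77.7 and 78.5 CPM in the MLL-ENL ∆YEATS libraries, against 41.9 and 44.8 CPM in the MLL-ENL libraries (log2 fold change 0.85 ± 0.11 SE, edgeR adjusted p = 0.00672). Cdkn1b had 34.6 and 33.6 CPM in the MLL-ENL ∆YEATS libraries, against 21.4 and 25.4 CPM in the MLL-ENL libraries (log2 fold change 0.55 ± 0.13 SE, edgeR adjusted p = 0.0471). In all 5 genes, picked by their calls, both MLL-ENL ∆YEATS libraries lay above both MLL-ENL libraries. Of all tested genes 32.1% did so. The calls of Cdkn1c and Cdkn2c held in 18 of 18 alternatives, while those of Cdkn1a and Cdkn1b ended when either MLL-ENL ∆YEATS library was left out. Log2 fold changes were then 0.85 and 0.84 for Cdkn1a and 0.52 and 0.56 for Cdkn1b.

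**Figure D4:**
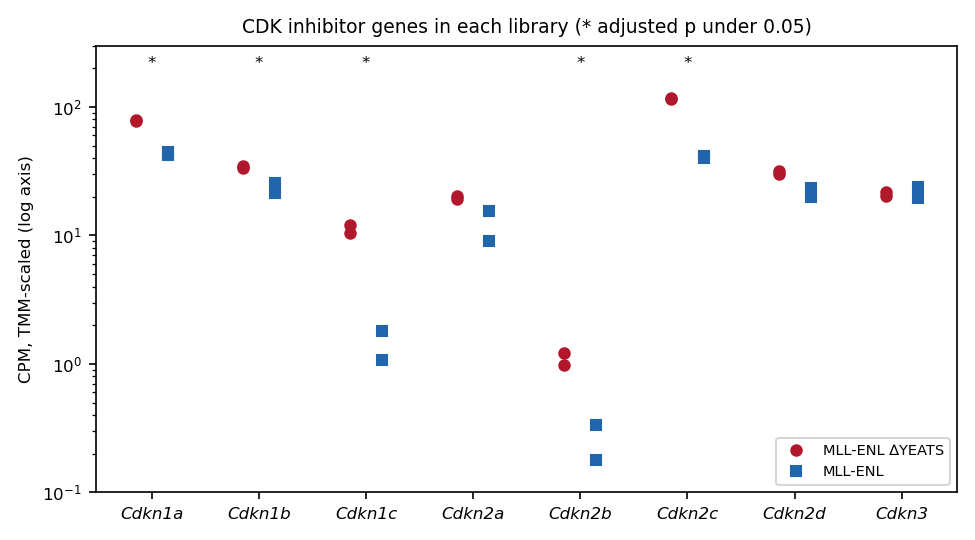
CPM of 8 CDK inhibitor genes on a log axis in every library, with MLL-ENL ∆YEATS libraries as circles on the left and MLL-ENL libraries as squares on the right of each gene. Asterisks mark the 5 genes with an adjusted p under 0.05, all higher in MLL-ENL ∆YEATS.

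Genes of the preceding step of the cell cycle were set beside the mitotic genes. Of 45 G1/S and replication genes 4 rose and 0 fell, which is 8.89%, where 7.04% of all tested genes rose and 9.84% fell. Their median log2 fold change was 0.04. They summed to 5983 and 5960.0 CPM in the MLL-ENL ∆YEATS libraries, against 5958 and 5894 CPM in the MLL-ENL libraries. The ribonucleotide reductase subunit gene Rrm2 had 404 and 405 CPM in the MLL-ENL ∆YEATS libraries, against 177 and 248 CPM in the MLL-ENL libraries (log2 fold change 0.93 ± 0.18 SE, edgeR adjusted p = 0.0243). The cyclin E2 gene Ccne2 had 77.9 and 79 CPM in the MLL-ENL ∆YEATS libraries, against 46.6 and 57.9 CPM in the MLL-ENL libraries (log2 fold change 0.59 ± 0.14 SE, edgeR adjusted p = 0.0457). In both genes the groups did not overlap. The call of Rrm2 held in 17 of 18 alternatives and that of Ccne2 in 10 of 18, counting the fits without an MLL-ENL library. That of Ccne2 ended when either MLL-ENL ∆YEATS library was left out, with log2 fold changes of 0.59 and 0.57. E2f2 and Orc1, named after their values were seen, were the other called genes, with log2 fold changes of 0.57 and 0.56. Both calls ended when either MLL-ENL ∆YEATS library was left out. Log2 fold changes were then 0.54 and 0.58 for E2f2 and 0.56 and 0.55 for Orc1. The difference between the mitotic and the G1/S genes was not tested.

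**Figure D5:**
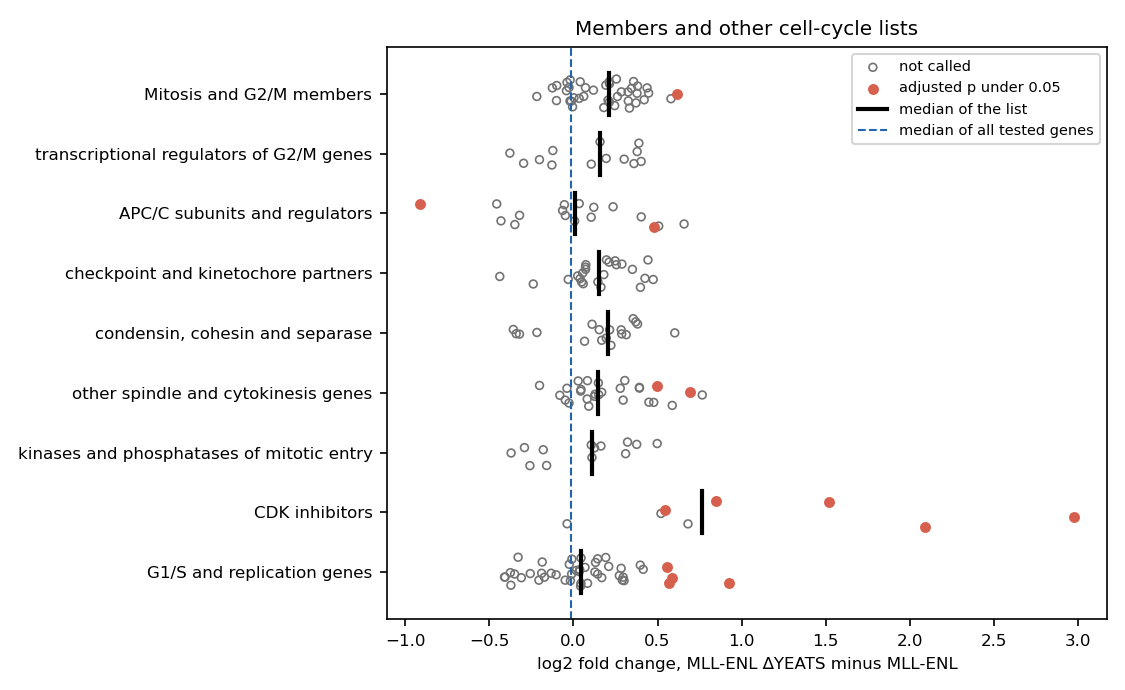
Log2 fold changes, MLL-ENL ∆YEATS minus MLL-ENL, of the 40 members, of the 7 lists of other mitotic genes (CDK inhibitors included) and of the G1/S and replication genes. Each point is a gene, filled where the adjusted p was under 0.05, black bars are list medians (0.21 for the members, 0.76 for CDK inhibitors, 0.04 for G1/S genes) and the dashed line is the median of all tested genes (-0.01).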

How the data were processed

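RNA was measured in 2 libraries of MLL-ENL ∆YEATS cells and 2 of MLL-ENL cells. Per the submitters' processing notes, the tools were STAR 2.7.8a, RSEM 1.3.3, cutadapt 2.3 and FastQC 0.11.8, on GRCm38. No source used here gives the strand setting, the annotation release or how fusion reads were counted. The authors deposited expected counts per gene (RSEM estimates, whole numbers as deposited) and FPKM, which scales such counts by gene length and library size.

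Groups came from the sample titles. Dates stood in place of 27 symbols and were replaced through Ensembl identifiers. GENCODE M21, which matched 55240 of 55426 identifiers, gave positions and exonic lengths, and RefSeq (GRCm38.p6) gave promoters. Genes were filtered with filterByExpr, which left 13245, scaled by TMM (factors 1.02 and 1.018 in MLL-ENL ∆YEATS, 0.953 and 1.012 in MLL-ENL) and tested with edgeR's quasi-likelihood test (edgeR 4.0.16 in R 4.3.3), with p adjusted by Benjamini-Hochberg over all tested genes and calls made under 0.05. The 95% intervals use 5.41 degrees of freedom. CPM divide counts by the library total of tested genes times its TMM factor. The fit was run on simulated counts with a single spread for all 4 libraries. The real pairs differ in spread, so that run does not show how the fit performs here. In all, 18 alternatives were run, with DESeq2 1.42.0 and limma 3.58.1 among them. Each member had at least 405 counts per library, while Cdkn2b rests on few counts.

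The members, gene lists and rules were chosen with earlier results of these data known. Full values go to members called, the 3 largest log2 fold changes in each direction, the 3 highest by FPKM, and Cdk1, Ccnb1, Plk1, Aurkb, Mki67 and Top2a. Ccna2, Aurka, Ndc80, Nuf2 and Kif2c fall outside this rule and were given in full after their values were seen. Of each other list the 2 called genes with the largest change in each direction are named, or, with none called, the 2 with the smallest p. Other members are given by role.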

Additional observations from a re-analysis of the deposited data

How the results depend on the processing

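The direction of the members' median log2 fold change (0.21) held in all 18 alternatives, and leaving out a library moved it between 0.13 and 0.33. Leaving out a library gave 0 to 35 members called, 1392 to 9099 genes called in all, 2 to 96 other mitotic genes and 1 to 36 G1/S genes. The count of members called, 1 as reported, was 2 with the replicate block (Anln and Bub1), where 23.7% of all genes were called. It was 3 with DESeq2 (18.2% of all genes) and 3 with limma-voom and library quality weights (16.3%), in both Anln, Bub1 and Smc4. It was 2 with mitochondrial, ribosomal-protein, haemoglobin and rRNA genes left out (17.8%) and 4 with the gene-length trend removed (21.9%). With limma on log2 FPKM at pseudocounts of 1 and 0.1 and without a filter it was 0. These 3 fits called 11.1%, 11.4% and 3.09% of all genes, and in them 12, 12 and 11 members had an unadjusted p under 0.05. The count over all genes, 2235 as reported, was 1350.0 at a minimum of 5 CPM in 2 libraries, 1466 with limma on log2(FPKM + 1) and 674 without a filter on FPKM, against 3133 with the block and 2905 with the length trend removed. Other mitotic genes, 9 as reported, were 4 at 5 CPM, 19 with the replicate block, 15 with the length trend removed and 2 without a filter on FPKM. G1/S genes, 4 as reported, were 2 with library totals, 2 without a filter and 2 at 5 CPM. Of all tested genes these settings called 15.5%, 9.44% and 13.9%. With limma on log2 FPKM, G1/S genes were 1 and 1 at pseudocounts of 1 and 0.1, and 0 without a filter on FPKM (13 unadjusted). Replicate numbers mark no stated pairing, and the correlation of same-numbered deviations was -0.044. Leaving out an MLL-ENL library turned the sign of a called value for 6 members. With replicate 1 of MLL-ENL left out, then with replicate 2 of MLL-ENL left out, log2 fold changes were -0.29 and 0.34 for Mki67, -0.16 and 0.12 for Cenpe, 0.35 and -0.22 for Cdc25c, -0.25 and 0.25 for Ckap2l, 0.19 and -0.23 for Birc5, and 0.17 and -0.22 for Cdca8. The cause was not tested.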
